A study of Mus musculus with 2 samples.

Results

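The genes described here are carriers that move amino acids, related small molecules and short peptides across cell membranes, in implantation sites of Cbs null and control females. They were chosen by name, as genes of the solute carrier families Slc1a, Slc3a, Slc6a, Slc7a, Slc15a, Slc36a, Slc38a and Slc43a with a single gene symbol in the array annotation, with 1 Slc38a gene left out by the rule. This gave 47 genes with 71 probe sets, of 12393 genes with a single symbol on the array. Slc36a, the family of proton-coupled amino acid transporters, had no such probe set. The tissue was the implantation site, the piece of pregnant uterus that holds a conceptus and the maternal decidua around it, dissected on day 8 of pregnancy from 4-month-old females on a C57Bl/6J X OLA129 background. One group was homozygous Cbs null and the other was labelled control, with 1 Affymetrix array each. Cbs encodes cystathionine beta-synthase, which condenses homocysteine with serine on the way to cysteine. The labels give the genotype of the females. They do not state which genotype the conceptus had, which alleles the control females carried or how many animals or sites stood behind an array.

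Amino acids reach the conceptus from maternal blood through the carriers of uterine and embryonic cells. Sodium-coupled carriers of Slc38a, and some of Slc1a, load cells with neutral amino acids. Several obligatory exchangers of Slc7a, bound to the heavy chain Slc3a2, trade these for branched-chain, aromatic or cationic amino acids. Slc6a carriers take up taurine, creatine, glycine, betaine or neurotransmitters with sodium and chloride, and Slc15a carriers take up di- and tripeptides with protons. Transcripts of several carriers are known to be induced through the kinase GCN2 and the factor ATF4 when amino acids are scarce.

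With 1 array per genotype no test between genotypes was possible, and every difference below describes these 2 arrays. Values are array signals on a linear scale, and ratios are log2 of Cbs null over control, after signals under a floor of 14.3 had been raised to it. A gene was called measured where the mean of its 2 signals was at least 70.5, the median over probe sets, and it was represented by its brightest probe set. Signals of different genes cannot be set against each other, because probe sets differ in response. The 2% trimmed mean of signal was 200.08 on both arrays. The ratio of 3' to 5' signal, a sign of RNA integrity, was 1.15 in Cbs null and 1.07 in control for Gapdh, and 1.61 in Cbs null and 1.54 in control for beta-actin. The 2 probe sets of Cbs read 23.8 and 22.3 in Cbs null, against 30.3 and 29.9 in control, all under the filter. As the deleted part of the gene is not stated, these values do not check the labels.

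Of the 47 transporters 17 (36.2%) were measured, against 57.1% of all genes on the array. All 17 also exceeded the filter on each array taken alone, so none entered through a high value on 1 array. One of them, the peptide transporter Slc15a2, was at least 1.5-fold higher in Cbs null sites, a share of 5.88% of the measured transporters where 2.46% of all measured genes were that much higher. None was at least 1.5-fold lower, where 1.33% of all measured genes were. At a 2-fold limit Slc15a2 was again the only transporter called higher (background 0.622%), and none was lower (background 0.283%). With 17 genes, 1 call in the higher direction is not a result about the families as a whole. The 16 other measured transporters had log2 ratios between -0.58 and 0.52, and 13 of the 17 (76.5%) differed by under 1.2-fold, as did 77.1% of all measured genes. The median over the 17 was -0.05 (quartiles -0.15 and 0.18), beside 0.02 over all 7079 measured genes, with 7 ratios above 0 and 10 below.

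**Figure D1:**
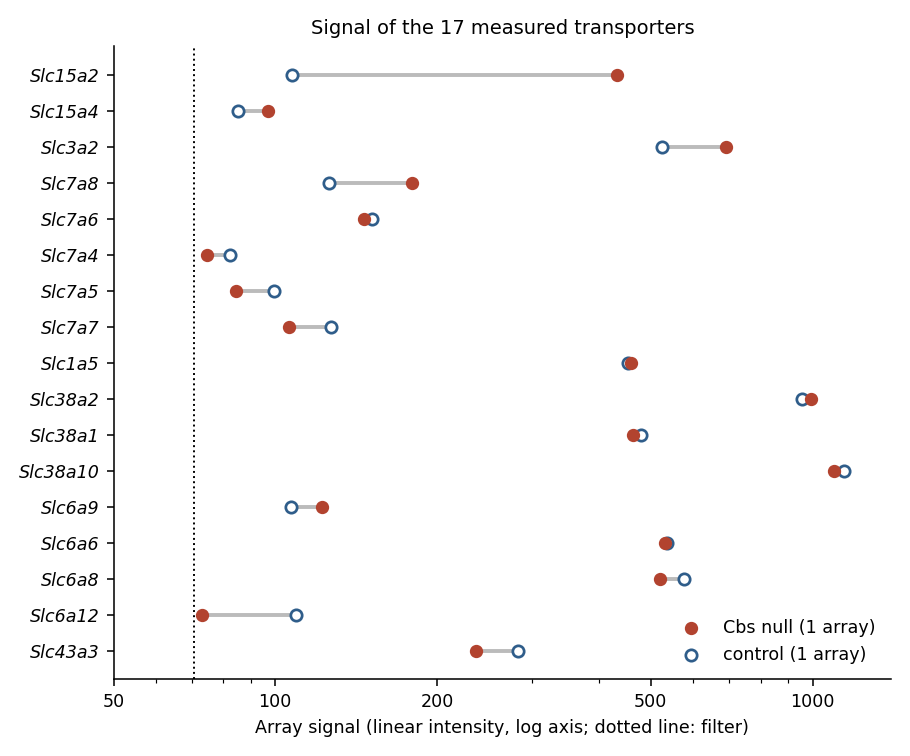
Signal of the 17 measured transporters on the Cbs null array (filled) and the control array (open), 1 array each, on a log axis and grouped by family; the dotted line is the signal filter of 70.5. Slc15a2, at 433.1 and 107.6, has the widest gap, and Slc6a12, at 73.1 and 109.4, the widest gap with control on the right.

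Slc15a2 encodes PEPT2, the high-affinity carrier of di- and tripeptides known best from kidney and choroid plexus. It read 433.1 in Cbs null and 107.6 in control, a log2 ratio of 2.01 or 4.03-fold. Only 5 of the 7079 measured genes had a larger ratio. The gene has a further probe set, which read 94.7 in Cbs null and 36.5 in control, a log2 ratio of 1.38 or 2.59-fold, with its mean under the filter. That further probe set may match several transcripts, as may the probe sets that stand for Slc3a2, Slc6a6, Slc7a7 and Slc38a10. Both probe sets of Slc15a2 were thus over 2-fold higher, while their ratios differed by 0.63. For comparison, the difference between the brightest and next probe set had an SD of 0.45 over the 1378 genes of which only the brightest was measured. In 9 of those 1378 genes the brightest was at least 2-fold higher in Cbs null, and in 4, Slc15a2 among them, both were.

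The promoters of Slc15a2, of Slc1a4 (the other transporter with a probe set over 2-fold apart, in dim signal) and of Slc7a11 (a textbook target of the amino acid response) are shown because the first pair were the only transporters whose brightest probe set was over 2-fold apart, and the last is the usual example of a carrier with such a motif. Each runs 5' to 3' on the gene's strand, from 250 bases before to 50 after the start, in RefSeq sequence of GRCm38.p6, at chr16:36784913-36785212 (minus strand) for Slc15a2, chr11:20332664-20332963 (minus strand) for Slc1a4 and chr3:50443564-50443863 (minus strand) for Slc7a11. Capitals mark the amino acid response motif TGATGNAA, to which ATF4 with a C/EBP partner is known to bind, on either strand.
Slc15a2: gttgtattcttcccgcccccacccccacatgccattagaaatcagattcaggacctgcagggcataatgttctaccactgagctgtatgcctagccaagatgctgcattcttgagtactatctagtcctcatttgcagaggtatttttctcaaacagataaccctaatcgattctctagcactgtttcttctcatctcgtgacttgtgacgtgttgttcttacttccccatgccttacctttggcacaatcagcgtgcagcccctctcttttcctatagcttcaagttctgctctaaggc
Slc1a4: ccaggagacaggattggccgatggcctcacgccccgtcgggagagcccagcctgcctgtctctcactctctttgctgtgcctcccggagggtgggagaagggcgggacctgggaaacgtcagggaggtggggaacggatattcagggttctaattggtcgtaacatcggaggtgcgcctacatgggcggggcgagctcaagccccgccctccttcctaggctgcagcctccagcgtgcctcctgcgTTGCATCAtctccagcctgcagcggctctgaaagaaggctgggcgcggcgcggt
Slc7a11: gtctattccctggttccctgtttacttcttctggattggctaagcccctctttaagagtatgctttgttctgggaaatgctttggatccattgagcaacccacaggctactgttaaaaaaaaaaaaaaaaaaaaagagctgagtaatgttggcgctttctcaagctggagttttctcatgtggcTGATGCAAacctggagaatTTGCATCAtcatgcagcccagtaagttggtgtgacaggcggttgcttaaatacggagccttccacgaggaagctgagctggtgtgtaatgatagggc
The Slc15a2 window holds no match. Slc1a4 has 1 match that begins at -4, and Slc7a11 has 2, which begin at -66 and -47 from the start. Promoters were given for 31 of the 47 transporters. Of these genes 4 (12.9%) had a match, Slc1a4, Slc7a7, Slc7a11 and Slc15a5, against 4.51% of 27025 genes with a promoter. A gene counted where any of its promoters matched, and several transporters, Slc7a7 among them, had more than 1. The number of promoters per gene was not evened out, and 3.97% of the 32851 single promoters matched. The antioxidant response motif TGACNNNGC, read by the factor NRF2, matched in 5 of the 31 (16.1%), Slc38a2, Slc6a9, Slc6a13, Slc7a1 and Slc7a6, against 14% of all genes, and in none of the sequences printed. The 2 motifs did not share a stretch in these windows. Of the 17 measured transporters only 10 had a promoter to search. Among these 10 only Slc7a7 had an amino acid response match, at a log2 ratio of -0.26. Slc7a11 lay at the floor on both arrays. A match describes the letters only.

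The other peptide and histidine carriers of the family had a small ratio or too little signal for one. Slc15a4, a lysosomal carrier of histidine and peptides, read 97.0 in Cbs null and 85.4 in control, a log2 ratio of 0.18. Slc15a3, its close relative in lysosomes of myeloid cells, read 23.3 in Cbs null and 25.8 in control, under the filter. Slc15a1, the intestinal peptide carrier PEPT1, and Slc15a5 were under the floor on both arrays, at 0.9 and 2.5 in Cbs null and 9.8 and 4.6 in control. Of the 5 family members only Slc15a2 and Slc15a4 were thus measured, and of these 2 Slc15a2 alone was past 1.5-fold.

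Among the heteromeric exchangers, Slc3a2, the heavy chain 4F2hc that carries its light chains to the plasma membrane, read 688.9 in Cbs null and 524.1 in control, a log2 ratio of 0.39. A ratio this high or higher was found in 6.61% of measured genes. Its light chain Slc7a8 (LAT2, an exchanger of neutral amino acids) read 179.8 in Cbs null and 125.7 in control, at 0.52, a level reached by 3.45% of measured genes. The 3 other measured light chains stood below 0. Slc7a5 (LAT1, which takes up leucine and other large neutral amino acids) read 84.4 in Cbs null and 99.6 in control, at -0.24. Slc7a7 (y+LAT1, which exports cationic amino acids) read 106.0 in Cbs null and 126.9 in control, at -0.26. Slc7a6 (y+LAT2) read 146.5 in Cbs null and 151.2 in control, at -0.05, and its other measured probe set had -0.21. The heavy chain and its light chains therefore had ratios of both signs, with a median of -0.14 over the 4 measured light chains and none past 1.5-fold.

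The light chains of cystine and of small neutral amino acids were dim. Slc7a11 (xCT), which imports cystine for glutathione synthesis, read 7.1 in Cbs null and 12.4 in control, under the floor on both arrays, so no ratio can be given. Slc7a10 (Asc-1) read 24.6 in Cbs null and 20.2 in control. Slc3a1, the heavy chain of the renal cystine carrier, read 15.9 in Cbs null and 2.1 in control, and its partner Slc7a9 was under the floor on both. Of the cationic amino acid carriers, which need no heavy chain, Slc7a1 (CAT1) read 0.5 in Cbs null and 0.4 in control, while Slc7a2 and Slc7a3 read 5.8 and 25.7 in Cbs null and 20.8 and 18.2 in control, all under the filter. Slc7a4, a relative without known transport activity, was measured at 74.5 in Cbs null and 82.2 in control, at -0.14.

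**Figure D2:**
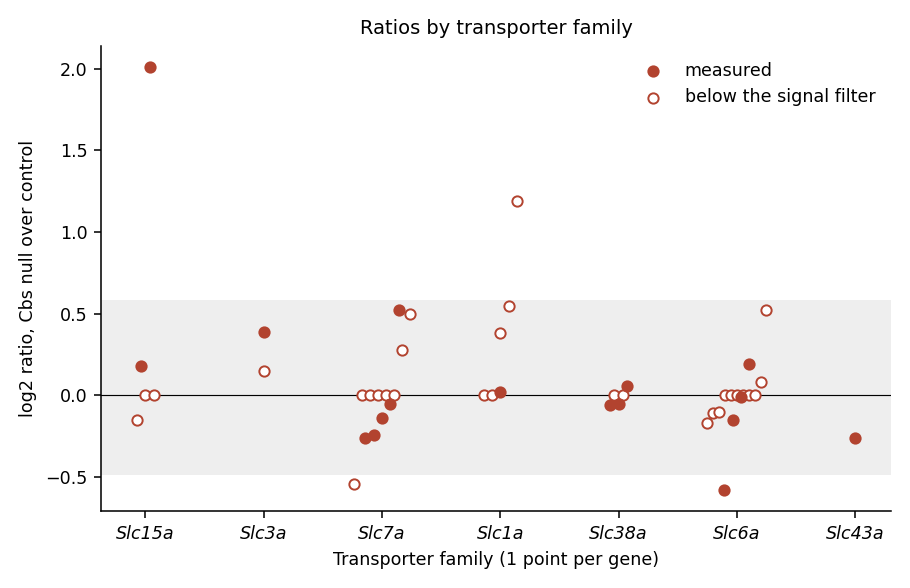
Log2 ratio of Cbs null over control for the 47 transporters by family, 1 point per gene; filled points are measured, open points lie below the signal filter, and the grey band holds the central 95% of all measured genes (-0.48 to 0.58). Slc15a2 and the dim Slc1a4 lie above the band; Slc6a12 and the dim Slc7a2 lie below it.

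The 4 measured carriers of Slc38a and Slc1a differed by under 1.2-fold between the arrays in their brightest probe sets. Slc38a2 (SNAT2), the system A carrier known to be induced by amino acid shortage, read 994.7 in Cbs null and 953.9 in control, at 0.06. Slc38a1 (SNAT1) read 463.5 in Cbs null and 479.2 in control, at -0.05. Slc1a5 (ASCT2), an exchanger of glutamine, read 459.2 in Cbs null and 453.5 in control, at 0.02. Slc38a10 read 1097.4 in Cbs null and 1145.5 in control, at -0.06, and its 2 other measured probe sets had 0.25 and 0.02, while 1 of its dim probe sets, at 38.1 in Cbs null and 61.8 in control, had -0.70. No replicate shows how much arrays of one genotype would differ.

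Slc1a4 (ASCT1), which carries serine, alanine and cysteine, was the other transporter over 2-fold higher, but only in signal below the filter. Its brightest probe set read 67.3 in Cbs null and 29.4 in control, a log2 ratio of 1.19. The 2 other probe sets of the gene gave 0.30 and -0.25, so the probe sets were of both signs. Slc1a4 is left out of the counts above. With no filter 2 of the 47 transporters (4.26%) were at least 1.5-fold higher, Slc15a2 and Slc1a4, where 4.07% of all 12393 genes were, and none was lower, where 2.95% of all genes were. Both were also over 2-fold higher, where 1.2% of all genes were, and 0.637% of all genes were over 2-fold lower. The glutamate carriers of Slc1a were dim. Slc1a1 read 44.5 in Cbs null and 34.3 in control, Slc1a3 read 21.0 in Cbs null and 9.7 in control, and Slc1a2 and Slc1a6 were under the floor on both arrays.

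**Figure D3:**
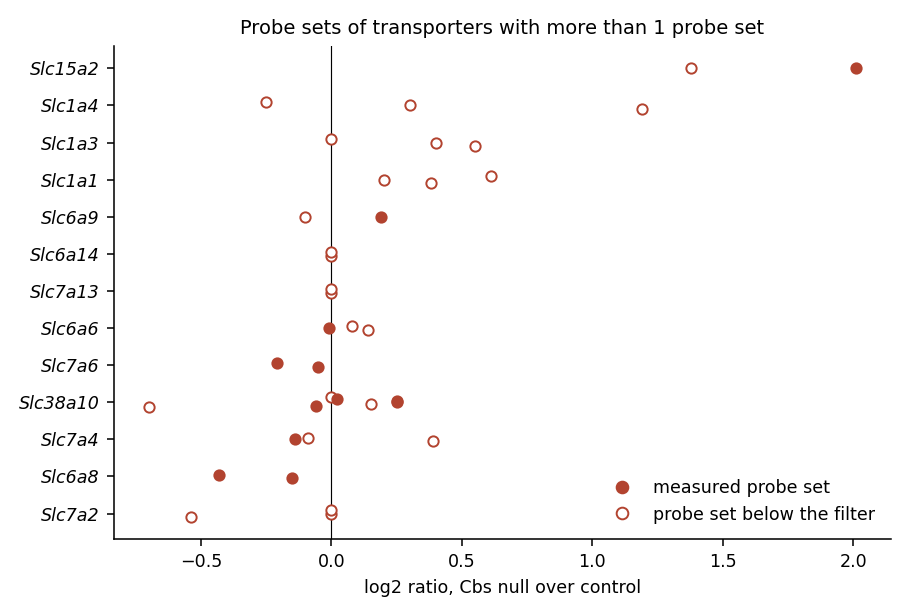
Log2 ratio of Cbs null over control for every probe set of the 13 transporters with more than 1 probe set; filled points passed the signal filter and open points did not. Both probe sets of Slc15a2 lie above 1, at 2.01 and 1.38, whereas the 3 of Slc1a4 run from -0.25 to 1.19.

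Of the Slc6a carriers 4 were measured. Slc6a12 (BGT1), the carrier of betaine and GABA, had the lowest ratio of all measured transporters. It read 73.1 in Cbs null and 109.4 in control, a log2 ratio of -0.582 that lay just inside the 1.5-fold limit of 0.585, and 1.34% of measured genes had a ratio as low. It rested on 1 probe set. Quantile normalization, centring on the median and removal of a signal-dependent trend each put Slc6a12 past the 1.5-fold limit. Adding 16 to each signal in place of the floor gave -0.49. Betaine is a methyl donor for homocysteine, the substrate of Cbs. Slc6a6 (TauT), the carrier of taurine, which cells make from cysteine, read 530.4 in Cbs null and 535.4 in control, at -0.01. Slc6a8, the creatine carrier, read 519.6 in Cbs null and 577.2 in control, at -0.15, and its other measured probe set read 342.2 in Cbs null and 461.6 in control, at -0.43. Slc6a9 (GlyT1), the glycine carrier, read 122.3 in Cbs null and 107.1 in control, at 0.19. These 4 carriers thus ran from -0.58 to 0.19.

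The monoamine carriers of the same family gave little signal. Slc6a2 (noradrenaline) read 64.4 in Cbs null and 69.4 in control, under the filter, while Slc6a4 (serotonin) was under the floor on both arrays and Slc6a3 (dopamine) read 15.1 in Cbs null and 11.0 in control. Slc6a14, a broad amino acid carrier of epithelia, was under the floor on both arrays in both of its probe sets. Slc43a3, which is known to carry purine bases, was the only Slc43a gene on the list and read 236.6 in Cbs null and 282.7 in control, at -0.26. In all, 30 transporters were not measured. Of these, 17 were at or under the floor on both arrays, 5 on 1 array, and 8 lay between floor and filter on both, and nothing can be said of a difference in the first 17.

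**Figure D4:**
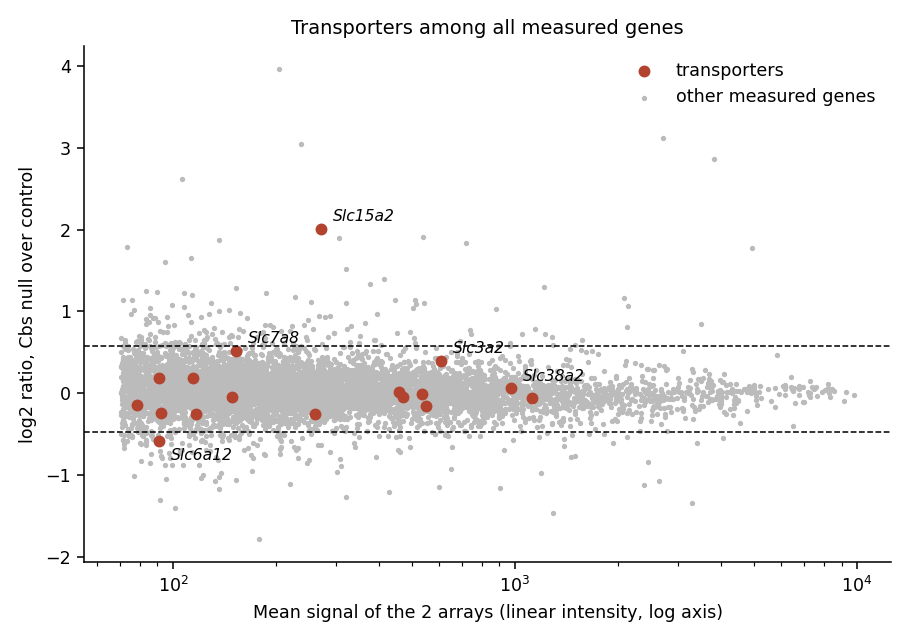
Log2 ratio of Cbs null over control against the mean signal of the 2 arrays (log axis) for the 7079 measured genes, with the 17 transporters in red; dashed lines enclose the central 95% of measured genes, from -0.48 to 0.58. Slc15a2 and Slc6a12 are the 2 transporters outside the lines.

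Genes that report or sense amino acid supply included none at least 1.5-fold apart, a count near the all-gene shares of 2.46% higher and 1.33% lower for lists of this length. Of the stress response genes driven by GCN2 and ATF4, 22 of 27 were measured, with a median log2 ratio of 0.01, 12 above 0 and 10 below, and none at least 1.5-fold apart. Atf4 itself had 0.06 and Asns (asparagine synthetase) 0.21. The lowest measured ratio was that of Ddit3 (CHOP), at -0.36, and the highest were those of Ddit4, at 0.45, and Phgdh, at 0.38. The 2 named by signal, Vldlr and Eif4ebp1, had -0.00 and -0.08. Of the genes of amino acid sensing by mTORC1, the growth kinase complex at the lysosome, 18 of 22 were measured, with a median of 0.00 and none 1.5-fold apart. Rheb, its activating GTPase, had -0.09 and Lamtor1, its lysosomal anchor, -0.06. Of other amino acid carriers 5 of 12 were measured, with a median of -0.09 and none 1.5-fold apart, among them the mitochondrial carriers Slc25a29 at -0.23 and Slc25a15 at -0.25.

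Genes of peptide breakdown and of carrier partners had a median of -0.03 over 17 of 21 members, with 1 at least 1.5-fold higher and none lower, a count near the same all-gene shares. That member was Anpep, aminopeptidase N, which trims peptides at the cell surface, and it read 407.2 in Cbs null and 237.0 in control, at 0.78. The surface peptidases Enpep and Dpp4 had 0.45 and 0.35, while Mme (neprilysin) had -0.41 and Ace -0.27. The adaptor Slc9a3r1 (NHERF1) had 0.33. The ratios of surface peptidases were therefore of both signs.

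Marker genes of several cell types differed between the same arrays, beside the 2.46% of all measured genes that were at least 1.5-fold higher and the 1.33% that were lower. Marker counts are given over genes that reached the filter on each array taken alone, a choice made after the data were seen, since a gene that reached it through 1 high array had to differ. The 2 shares over all measured genes rest on the filter of mean signal and were not computed under this stricter one. Of 23 uterine epithelium genes on the array 18 did so, with 16 above 0, 8 at least 1.5-fold higher, none lower and a median log2 ratio of 0.50. The summed signal of the 23 was 25689 in Cbs null and 8070 in control. The gland products Spink1, Prss28 and Prss29 gave most of that sum in Cbs null but not in control. Over the 20 others it was 6524 in Cbs null and 4375 in control. None of the 23 was at the floor on both arrays. Of 23 genes of macrophages and antigen presenting cells 17 reached the filter on both, with 15 above 0, 3 at least 1.5-fold higher, none lower and a median of 0.36, and the summed signal of the 23 was 14595 in Cbs null and 10927 in control.

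Natural killer cell genes were lower, with 9 of 13 at least 1.5-fold lower, none higher and a median of -0.96. Of 14 decidual genes 3 were at least 1.5-fold lower and none higher, with a median of -0.02. The 3 were Bmp2 at -1.21, Tdo2 at -0.84 and Fst at -0.78. Of 5 red cell genes 3, and of 7 fat cell genes 4, were at least 1.5-fold higher, with medians of 0.85 and 0.61 and none lower. Of 3 trophoblast genes 1 was at least 1.5-fold higher, Tpbpa, with a median of 0.01. None of 4 yolk sac genes or of 17 endothelial genes was 1.5-fold apart, with medians of 0.04 and -0.11. The yolk sac count leaves out 3 genes that passed the filter through 1 array. They were Afp at 3.96 and Ttr at 1.78, through Cbs null, and Alb at -1.30, through control. In whole tissue, more cells of a type and more RNA per cell cannot be told apart. The part of these shifts in the ratio of Slc15a2 was not tested.

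**Figure D5:**
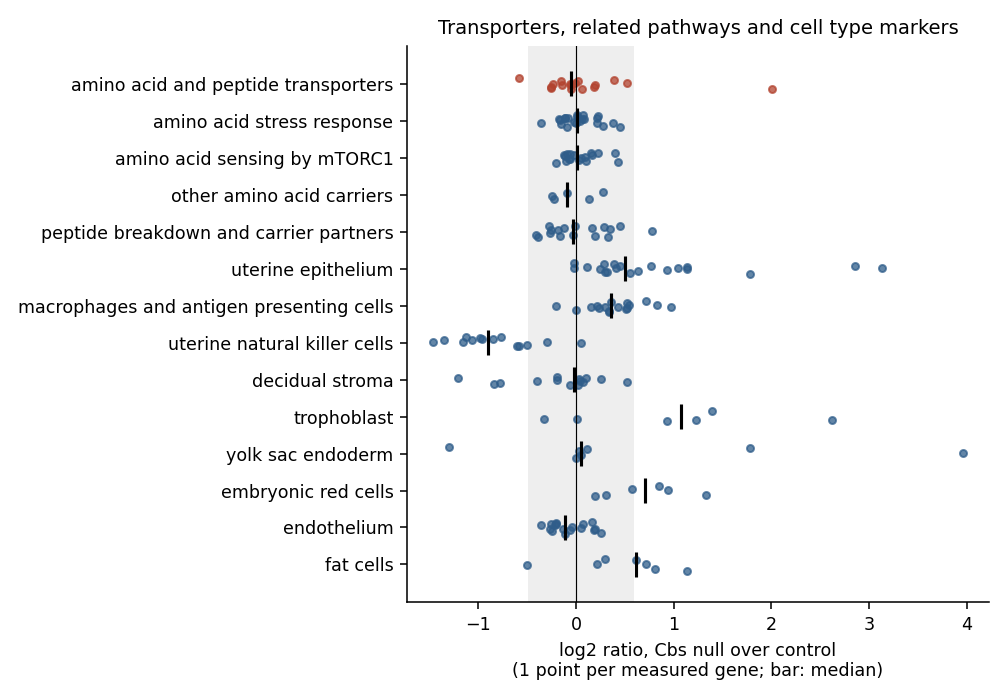
Log2 ratio of Cbs null over control for the measured transporters (red) and for measured genes of related pathways and cell type marker lists (blue), 1 point per gene; black bars are medians and the grey band holds the central 95% of measured genes. The pathway lists centre near 0, from -0.09 to 0.01, and the epithelium list at 0.50; the trophoblast bar, at 1.08, includes 3 genes (Ceacam11, Prl2b1, Prl4a1) that passed the filter through Cbs null alone and is 0.01 without them.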

How the data were processed

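Total RNA of dissected implantation sites was made into biotinylated cRNA for Affymetrix arrays, per the labels' protocols, with 1 array for Cbs null and 1 for control. The deposited values are intensity, 1 per probe set and array on a linear scale, for which the submitters' processing notes name GCOS 1.4. Its algorithm and the genome build are stated nowhere in the labels or the file. Trimmed means were equal, so no further scaling was applied.

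Of 22690 probe sets 64 controls were set aside. A single symbol was given by the platform annotation for 20380, several for 691 and none for 1555, and only the first were used. All 47 transporter symbols matched a RefSeq gene table by gene ID. The floor was the 25th percentile of all signals and the filter the 50th percentile of mean signal. Log2 ratios carry no p-value, and precision is limited by the number of arrays. All measured transporters, and those below the filter as examples, could be named by the rule. So could up to 4 genes past 1.5-fold from each list, or otherwise the 2 with the highest signal. Atf4, Asns, Ddit3, Ddit4, Phgdh, Enpep, Dpp4, Mme, Ace and Slc9a3r1 were picked after their values were seen. The members and lists were chosen with earlier results of these data known. Motifs were searched in both strands of RefSeq promoters, and no coordinates of probe sets are given. Scripts (Python 3.11.15, pandas 2.3.3, statsmodels 0.14.6) were tested on simulated data. Alternatives were 3 normalizations, 3 treatments of low signal, 4 filters and 2 choices of probe sets.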

Additional observations from a re-analysis of the deposited data

Results flagged for a closer look

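Probe sets that did not stand for their gene, or lay below the signal filter, gave a signal at least 1.5-fold above control for 3 transporters. The further probe set of Slc15a2 read 94.7 in Cbs null and 36.5 in control, a log2 ratio of 1.38. A probe set of Slc1a4 read 67.3 in Cbs null and 29.4 in control, a log2 ratio of 1.19. A probe set of Slc1a1 read 21.8 in Cbs null and 12.0 in control, which is under the floor, and its log2 ratio against the floor was 0.61. The 2 other probe sets of Slc1a1 had 0.38 and 0.20. For each of the 3 transporters, the probe set flagged here may match several transcripts.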

How the results depend on the processing

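Slc15a2 was at least 1.5-fold higher under all 12 alternatives, with log2 ratios from 1.86 to 2.01. The other floors, filters and probe set choices left it at 2.01. They could not change it, because its measured probe set stayed the same and read above every floor. Its further probe set, at 1.38, entered none of them. The median over measured transporters ran from -0.06 to 0.00, and each of 193 alternative values of single transporters lay within 0.30 (the SD between 2 measured probe sets of a gene) of the value reported. A filter cannot change the value of a single transporter, so part of this agreement was fixed in advance. Slc6a12 ran from -0.63 to -0.49 where it was measured, so the number of transporters at least 1.5-fold lower was 1 rather than 0 with quantile normalization, median centring and lowess. The number at least 1.5-fold higher was 2 with the filter at the 25th percentile and with no filter, where Slc1a4 entered. Family medians moved with the filter because genes entered or left. For Slc15a the value of 1.10 over 2 genes was 0.18 with the filter at the 25th percentile, 2.01 at the 75th and 0.00 with no filter, and for Slc1a the value of 0.02 over 1 gene was 0.46 at the 25th percentile. Signal over background limits the 30 dim transporters, and 1 array per genotype limits all. No paired analysis was possible because each group has 1 array.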

Other observations

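Other solute carriers on the array served as the nearest set for comparison. Of 194 such genes 84 were measured, and the log2 ratio had a median of 0.01 (quartiles -0.10 and 0.25), beside -0.05 for the amino acid and peptide transporters. The fatty acid carrier Slc27a1 was the only one of the 84 at least 1.5-fold higher, at 87.1 in Cbs null and 54.3 in control, a log2 ratio of 0.68, and none was that much lower. Its control signal was under the filter of 70.5, which it passed through Cbs null. Of the 79 that reached the filter on both arrays none was 1.5-fold apart, and their median was 0.01. Its name was taken after the values were seen.

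Of the genes up to 4 places from Slc15a2 in the RefSeq order, Iqcb1 and Golgb1 were not on the array. None of the others was measured. Ildr1 on one side was under the floor on both arrays, and Eaf2 on the other read 15.4 in Cbs null and 19.9 in control.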
